A study of Homo sapiens with 8 samples.

Results

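The glutathione peroxidases GPX1, GPX2, GPX3, GPX4, GPX7 and GPX8 were followed in colorectal cancer cells with lowered UHRF1. The 6 genes were chosen by name, and they were selected on the family they belong to at a time when their TPM in these libraries, and the high level of GPX3 in a single group in particular, were already known. Their levels and the differences between groups are therefore given as a description with standard errors and without a test. The 6 genes are among 19942 protein-coding genes of the tables, and each matched a single gene. TPM scales the reads of a gene to its length and to the library, so that levels of different genes can be set side by side. Of the 6 genes, 5 passed 1 TPM in at least 1 library, and GPX7 did not.

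Glutathione peroxidases reduce hydrogen peroxide and organic hydroperoxides with glutathione as the electron donor. GPX1 is the cytosolic enzyme found in most cells, GPX2 is typical of the gastrointestinal epithelium, GPX3 is secreted and circulates in plasma, mostly from the kidney, and GPX4 reduces phospholipid hydroperoxides in membranes and protects cells from ferroptosis. GPX1 to GPX4 carry selenocysteine at the active site, whereas GPX7 and GPX8 carry cysteine and reside in the endoplasmic reticulum, where they work beside protein disulfide isomerases. GPX3 is known as a gene that is often silenced with promoter methylation in tumors.

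Poly(A) RNA was sequenced from 8 libraries in 4 groups of 2. HCT116, a human colorectal cancer cell line, carried either the control hairpin shScr or the hairpin shUHRF1 against UHRF1, and UF1hypo, a derivative of HCT116 in which exon 4 of 1 UHRF1 allele was removed, carried the same hairpins. All 4 groups were infected with lentivirus and kept under puromycin as stable pools, with harvest on one of 2 days that the sources used here do not assign to libraries. UF1hypo is a single clone, so its heterozygous allele and any other property of the clone cannot be told apart. The labels name the libraries of a group as separate samples but not as separate cultures, so the spread between them may be technical.

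UHRF1 binds hemimethylated DNA and brings DNMT1 to replicated DNA. Its own mRNA, over the whole gene and so without regard to exon 4, was with shScr at 87.5 and 98.4 TPM in HCT116 and 47.3 and 50.6 in UF1hypo, and with shUHRF1 at 31.7 and 32.7 in HCT116 and 34.1 and 21.1 in UF1hypo. The log2 fold change with the hairpin was −1.50 ± 0.22 (SE) in HCT116 (limma adjusted p = 0.0564) and −0.84 ± 0.22 in UF1hypo (limma adjusted p = 0.0406), and the 2 groups with shUHRF1 overlapped in UHRF1 TPM. The libraries held 5.42 to 7.83 Gb of aligned bases, estimated from coverage and FPKM. The replicates of UF1hypo shUHRF1 stood further apart (Pearson r = 0.979 across genes) than those of the other groups (0.995 to 0.996), and their difference followed the GC content of the transcripts. As for cell identity, KRT8 ranged from 1539 to 5035 TPM and EPCAM from 174 to 372, but VIL1 stayed at or below 0.14 TPM and CDX1 at or below 0.50. Of the leukocyte markers, PTPRC, which leukocytes share, was at 0 in the 6 libraries outside UF1hypo shUHRF1 and at 0.0561 and 0.0728 TPM within it, and CD68 was at 6.27 to 42.6 TPM outside.

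The stretches upstream of GPX3, GPX7 and GPX2 are shown because these are the 3 genes that lay near 0 in HCT116, and because UHRF1 acts on methylated CpG. They come from RefSeq on GRCh38.p14, end at or just before the base preceding the RefSeq start, run 5′ to 3′ on the strand of the gene, hold no exon of GENCODE version 44, and have CpG in capitals. They lie at chr5:151020341-151020590 (plus strand) for GPX3, chr1:52602121-52602370 (plus strand) for GPX7 and chr14:64942747-64942995 (minus strand) for GPX2.
GPX3: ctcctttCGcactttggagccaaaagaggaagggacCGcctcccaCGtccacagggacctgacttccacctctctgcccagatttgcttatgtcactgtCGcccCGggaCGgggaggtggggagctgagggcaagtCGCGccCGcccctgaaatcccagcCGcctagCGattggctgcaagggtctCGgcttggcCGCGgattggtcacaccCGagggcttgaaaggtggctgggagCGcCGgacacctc
GPX7: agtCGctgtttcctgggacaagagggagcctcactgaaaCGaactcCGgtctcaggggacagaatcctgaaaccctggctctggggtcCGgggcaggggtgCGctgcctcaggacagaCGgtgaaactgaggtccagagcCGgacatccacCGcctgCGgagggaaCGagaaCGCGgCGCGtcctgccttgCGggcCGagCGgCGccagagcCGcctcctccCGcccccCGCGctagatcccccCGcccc
GPX2: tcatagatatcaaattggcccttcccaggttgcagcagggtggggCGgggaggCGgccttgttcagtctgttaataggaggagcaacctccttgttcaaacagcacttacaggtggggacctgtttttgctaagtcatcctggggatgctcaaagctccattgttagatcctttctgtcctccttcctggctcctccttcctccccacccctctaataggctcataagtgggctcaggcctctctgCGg
The stretch of GPX3 held 17 CpG in 250 bases, that of GPX7 23 in 250, and that of GPX2 only 3 in 249. The deposited tables start GPX3 and GPX2 further upstream than RefSeq does, so that 153 bases of the GPX3 stretch and 159 of the GPX2 stretch lie within the gene as quantified, and none of the GPX7 stretch. The 97 bases of GPX3 before that start held 3 of its 17 CpG, and the 90 bases of GPX2 held 2 of its 3. Most CpG of the GPX3 stretch thus lay between the start in the tables and the RefSeq start. DNA methylation was not analysed here, so these letters are a description of the reference genome and not of its state in the cells.

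All 6 genes had RefSeq windows of 300 bases, 250 before and 50 after the start. By CpG number GPX4 came first with 39, 39 and 43 in its 3 windows, followed by GPX7 with 30, GPX1 with 23 and GPX3 with 21, and GPX2 and GPX8 had 4 each. Among all 35116 windows of the table the median was 14 CpG, and 39.5% held at least as many as that of GPX3, 22.4% as many as that of GPX7 and 75.5% as many as those of GPX2 and GPX8. The abundant GPX1 and GPX4 and the nearly unexpressed GPX7 all lay above the median, so the order by CpG number was not that by level. Whether CpG number bears on level was not tested. The motif TGACNNNGC, the core of sites bound by NRF2, was searched on both strands. It matched once among the 6 genes, as TGACTTAGC on the reverse strand of the GPX2 window, and 13.3% of all windows held it.

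GPX3, the secreted enzyme (ENSG00000211445.12, chromosome 5, 151020438 to 151028992 in the tables, plus strand, GRCh38), was near 0 in 6 libraries and abundant in the other 2. In HCT116 it measured 0.391 and 0.743 TPM with shScr and 0.591 and 0.384 with shUHRF1. In UF1hypo it measured 0.0589 and 0.163 TPM with shScr and 69.3 and 50.8 with shUHRF1. The 2 libraries of UF1hypo shUHRF1 lay far above all others and the HCT116 groups overlapped each other, whereas both UF1hypo shScr libraries lay below every HCT116 library. The mean coverage per base of the gene was 0.0128 to 0.243 in those 6 libraries against 53.1 and 36.8, so the order among the low groups rests on very few reads. In bulk libraries such as these, fewer cells that express a gene and less of its RNA per cell cannot be told apart.

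On the log2(TPM + 1) scale, which understates changes of low genes, GPX3 was 5.77 ± 0.24 (SE) higher in UF1hypo shUHRF1 than in UF1hypo shScr. In HCT116 the difference with the same hairpin was −0.07, and there GPX3 did not pass the 1 TPM filter, so that no standard error was fitted. The knockdown difference in UF1hypo thus exceeded that in HCT116 by 5.83 ± 0.34. UF1hypo shScr was 0.49 below HCT116 shScr, with all 4 libraries under 1 TPM. Between the 2 groups with shUHRF1 the difference was 5.35 ± 0.24. These 3 large values share the libraries of UF1hypo shUHRF1 and are not independent of each other. By size GPX3 ranked 10 of 13620 genes tested in the UF1hypo knockdown, 7 of 13781 in the difference of knockdowns and 33 of 13650 between the groups with shUHRF1. Among all protein-coding genes by mean TPM it stood at rank 12729 in HCT116 shScr, 14314 in UF1hypo shScr and 3073 in UF1hypo shUHRF1.

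**Figure D1:**
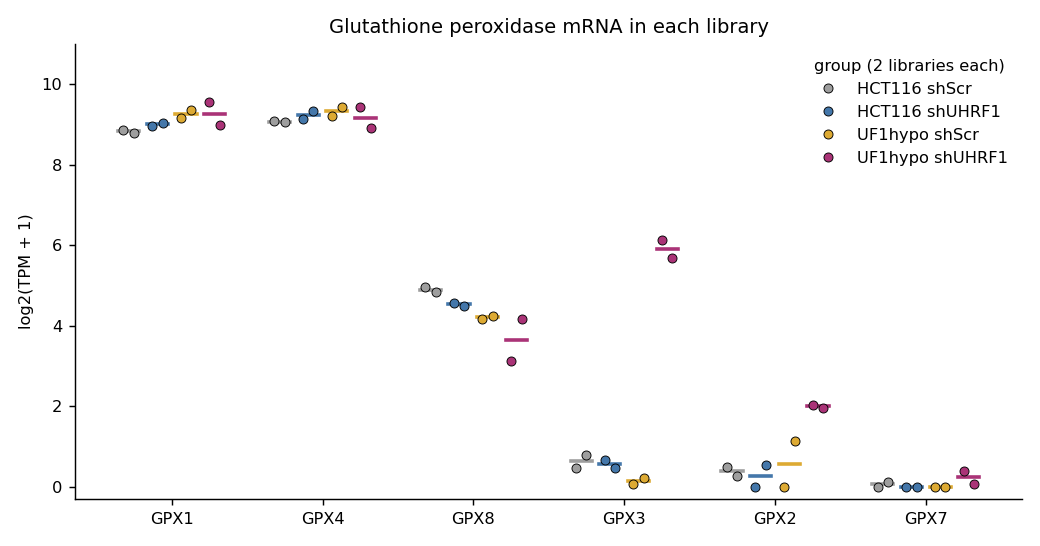
Level of each of the 6 glutathione peroxidases as log2(TPM + 1), with 1 point per library and a bar at the mean of the 2 libraries of a group. GPX3 in UF1hypo shUHRF1, at 69.3 and 50.8 TPM, lies above GPX8 in every library, whereas GPX1 and GPX4 stay between 443 and 750 TPM in all 8.

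GPX2, the gastrointestinal enzyme (ENSG00000176153.12, chromosome 14, 64939152 to 64942905, minus strand), was the other gene with its highest values in UF1hypo shUHRF1, at a level far below that of GPX3. With shScr it measured 0.416 and 0.211 TPM in HCT116 and 0 and 1.19 in UF1hypo, and with shUHRF1 0 and 0.460 in HCT116 and 3.12 and 2.90 in UF1hypo. The other 3 groups overlapped and UF1hypo shUHRF1 lay above them all. The difference on the log2(TPM + 1) scale was 1.44 ± 0.36 (SE) for the UF1hypo knockdown, and it ranged from 0.87 to 2.00 when the libraries were left out in turn, since UF1hypo shScr replicate 2 alone passed 1 TPM in that group. The 2 groups with shUHRF1 differed by 1.73 ± 0.36. The span of GPX2 in the tables overlapped CHURC1 and the read-through gene CHURC1-FNTB on the opposite strand. The sources used here do not state whether reads were assigned by strand, and CHURC1 measured 17.0 to 24.0 TPM over the 8 libraries, with its lowest 2 values in UF1hypo shUHRF1.

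GPX1, the cytosolic enzyme (ENSG00000233276.8, chromosome 3, 49357176 to 49358353, minus strand), was abundant everywhere, at ranks 177 to 258 of all protein-coding genes by group mean. With shScr it measured 468 and 443 TPM in HCT116 and 571 and 662 in UF1hypo, and with shUHRF1 502 and 523 in HCT116 and 750 and 507 in UF1hypo. Both HCT116 groups lay below UF1hypo shScr without overlap, and UF1hypo shUHRF1 overlapped all groups but HCT116 shScr. The log2 difference was 0.17 ± 0.19 (SE) for the knockdown in HCT116, 0.00 ± 0.19 for the knockdown in UF1hypo and 0.43 ± 0.19 for UF1hypo shScr against HCT116 shScr.

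GPX4, the phospholipid hydroperoxidase (ENSG00000167468.18, chromosome 19, 1103926 to 1106791, plus strand), was of like abundance, at ranks 167 to 206. The replicates with shScr stood at 542 and 532 TPM in HCT116 and 589 and 696 in UF1hypo, and those with shUHRF1 at 564 and 646 in HCT116 and 691 and 481 in UF1hypo. Neighbouring groups in the order of the means overlapped throughout, but HCT116 shScr lay below HCT116 shUHRF1 and UF1hypo shScr without overlap. The log2 difference was 0.17 ± 0.19 (SE) in HCT116 and −0.15 ± 0.19 in UF1hypo for the knockdown, and 0.25 ± 0.19 for UF1hypo shScr against HCT116 shScr. These 2 abundant genes therefore differed between groups by less than 0.5 on the log2 scale in every comparison.

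GPX8, a membrane-bound enzyme of the endoplasmic reticulum (ENSG00000164294.14, chromosome 5, 55160167 to 55167297, plus strand), was of intermediate level, highest in HCT116 shScr and lowest in UF1hypo shUHRF1. In HCT116 it measured 30.0 and 27.8 TPM with shScr and 22.8 and 21.6 with shUHRF1, and in UF1hypo 17.1 and 17.9 TPM with shScr and 7.71 and 16.8 with shUHRF1. No 2 groups overlapped, although the step between the UF1hypo groups was smaller than the spread of UF1hypo shUHRF1. The log2 difference was −0.37 ± 0.30 (SE) for the knockdown in HCT116, −0.57 ± 0.30 for the knockdown in UF1hypo, −0.69 ± 0.30 for UF1hypo shScr against HCT116 shScr and −0.89 ± 0.30 between the groups with shUHRF1. The UF1hypo knockdown difference was −0.05 without UF1hypo shUHRF1 replicate 1 and −1.09 without replicate 2. CDC20B overlaps GPX8 on the opposite strand and reached at most 0.279 TPM.

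GPX7, the other enzyme of the endoplasmic reticulum (ENSG00000116157.6, chromosome 1, 52602371 to 52609051, plus strand), was listed at 0 in 5 libraries. The remaining 3 were HCT116 shScr replicate 2 at 0.0869 TPM and the replicates of UF1hypo shUHRF1 at 0.310 and 0.0571. GPX7 was therefore not tested in any comparison. Of the family genes outside the 6, GPX5, an enzyme of the epididymis, was at 0 in 7 libraries and 0.164 TPM in UF1hypo shUHRF1 replicate 2, and GPX6, known from the olfactory epithelium, was at 0 in 7 libraries and 0.0657 TPM in UF1hypo shScr replicate 1.

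**Figure D2:**
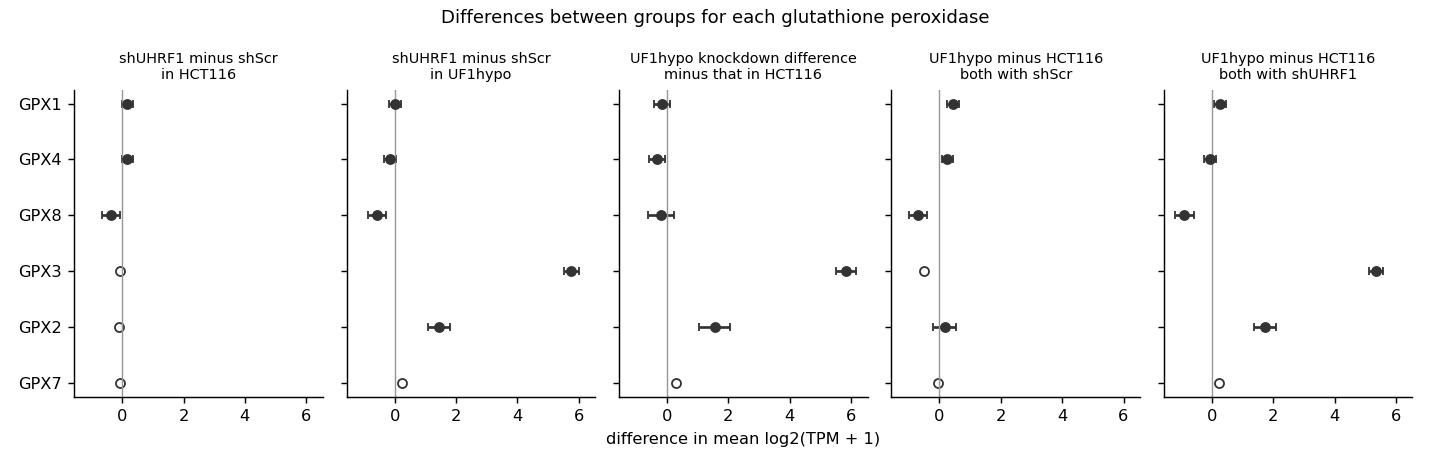
Difference in mean log2(TPM + 1) of the 6 glutathione peroxidases (rows) in each of 5 comparisons (panels), with bars for the SE of the fit over all libraries and open circles for genes under the 1 TPM filter, which have no SE. GPX3 stands at 5.77, 5.83 and 5.35 in the 3 panels that hold UF1hypo shUHRF1 and near 0 in the others.

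By the thresholds used for all genes, an adjusted p below 0.05 and an absolute log2 fold change above 1, GPX3 and GPX2 were called higher for the knockdown in UF1hypo, where 5 of the 6 genes were tested and 8.53% of all genes were called (7.39% higher, 1.14% lower). In HCT116 0 of 3 tested members were called, at a background of 0.0708% (0.0472% higher, 0.0236% lower) or 9 of 12704 genes by limma, with 810 at an unadjusted p below 0.05. In the difference of knockdowns GPX3 alone of 5 was called, at 5.09% (4.54% higher, 0.559% lower). Between the lines with shScr 0 of 4 were called, at 3.54% (2.59% higher, 0.949% lower) or 455 of 12856 genes by limma, with 2341 at an unadjusted p below 0.05. Between the lines with shUHRF1 GPX2 and GPX3 of 5 were called higher, at 16.2% (12.2% higher, 3.92% lower). The calls and counts of the 6 genes use the measure with which the genes were chosen. GPX3 also passed the 1 TPM filter only through UF1hypo shUHRF1, the group where it was known to be high. They are therefore no test of the 6 genes, and nothing is read from them. Higher calls made up 86.7% in the UF1hypo knockdown, 89.0% in the difference and 75.7% between the lines with shUHRF1, and under quantile normalization these were 70.2%, 76.1% and 56.8%, with 74.3% for the difference under the GC correction.

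As a family, the 6 genes summed in HCT116 to 1040 and 1004 TPM with shScr and 1090 and 1192 with shUHRF1, and in UF1hypo to 1177 and 1377 with shScr and 1521 and 1059 with shUHRF1. GPX1 and GPX4 supplied 93.3% to 98.6% of that sum in every library. With shScr GPX3 supplied 0.0558% ± 0.0258 (SD, n = 2) in HCT116 and 0.00843% ± 0.00485 in UF1hypo, and with shUHRF1 0.0432% ± 0.0155 in HCT116 and 4.68% ± 0.172 in UF1hypo. Its share was thus closely alike in the 2 UF1hypo shUHRF1 libraries even where the level differed, and GPX3 passed GPX8, which supplied 2.83% ± 0.083 in HCT116 shScr and 1.05% ± 0.77 in UF1hypo shUHRF1. The ratio of GPX1 to GPX4 was 0.810 to 0.890 over the 4 HCT116 libraries, and in UF1hypo it was 0.951 and 0.969 with shScr and 1.08 and 1.05 with shUHRF1. The 2 HCT116 groups overlapped in this ratio and were pooled, and the 3 ranges given here did not overlap. How often other pairs of genes would separate in this way was not tested. The transcripts of GPX1 and GPX4 hold 62.4% and 62.3% GC, and the part of GC content in the ratio was not tested.

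**Figure D3:**
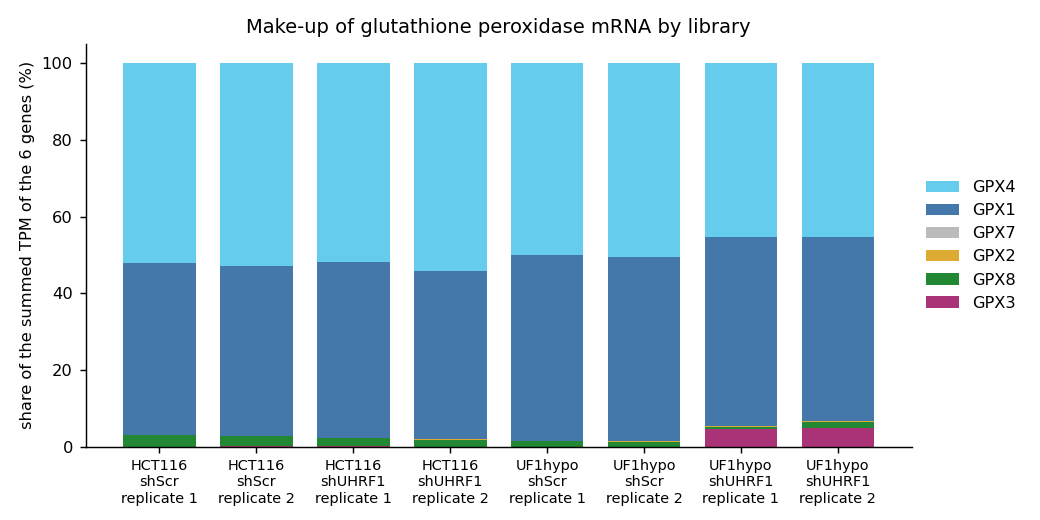
Stacked bars of the share (%) that each of the 6 genes took of their summed TPM in each of the 8 libraries. GPX1 and GPX4 fill 93.3% to 98.6% of every bar, and GPX3 is visible only in the 2 UF1hypo shUHRF1 libraries, at 4.56% and 4.80%.

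The replicates of both UF1hypo groups parted by GC content, most of all those of UF1hypo shUHRF1, and the members did so too. Across genes the difference of replicate 1 minus replicate 2 rose with GC content (Spearman's rho = 0.814, over 13781 genes, which are not independent replicates), with a median of 0.56 on the log2 scale in the tenth of genes highest in GC and −1.01 in the tenth lowest. In UF1hypo shScr the difference fell with GC content (rho = −0.508), and in the HCT116 groups rho was −0.0417 and −0.0680. Between the UF1hypo shUHRF1 replicates GPX1 and GPX4 differed by 0.56 and 0.52, and GPX8, whose transcript holds 40.3% GC, by −1.03. GPX3, at 55.6% GC, differed by 0.44. After removing each library's median within 10 bins of GC content and of length, the UF1hypo knockdown difference was 5.62 for GPX3, 1.35 for GPX2, −0.43 for GPX8, −0.21 for GPX1 and −0.37 for GPX4. Between the lines with shUHRF1 the sign of GPX1 turned, from 0.27 to −0.11. The differences of GPX3 and GPX2 were close to their uncorrected size, while those of GPX1 and GPX4 in the UF1hypo knockdown were both negative after the correction.

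The genes beside GPX3 were also highest in UF1hypo shUHRF1, at a far smaller size. TNIP1, 953 bases downstream, measured 36.2 to 48.2 TPM in the 6 other libraries and 74.9 and 56.4 in UF1hypo shUHRF1, and its log2 fold change of 0.48 in the UF1hypo knockdown was not called. ZNF300, 115455 bases upstream, was at 0 to 0.0589 TPM in the 6 other libraries and 0.109 and 0.717 in UF1hypo shUHRF1, and was not tested. Of the neighbours of the other members, RHOA lay 786 bases from GPX1 at 441 to 670 TPM, and POLR2E near GPX4 and RAB15 near GPX2 were not called in any comparison. SBNO2, 846 bases past GPX4, was called higher between the lines with shUHRF1, by 1.41 on the log2 scale, with 57.0 and 50.01 TPM in HCT116 shUHRF1 and 191 and 108 in UF1hypo shUHRF1.

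The protein-coding genes whose log2(TPM + 1) was most like that of GPX3 over the 8 libraries were LIN28B, JPH4, KLHDC7B, PNMA6E and SOHLH1, with Pearson's r of 0.996 to 0.997. All were near 0 outside UF1hypo shUHRF1, where for instance SOHLH1 reached 38.9 and 32.1 TPM. Since 6 of the 8 points lie together, this r describes a single step between groups. For GPX2 the likest genes were CNDP2, BEST4 and PRAP1 (r = 0.979 to 0.984). For GPX8 they were PUM2, PPAT and RIOK1 (r = 0.989 to 0.992), for GPX1 GRN, TLE5 and MPV17L2 (0.982 to 0.988), and for GPX4 HSPB1, COX6B1 and PFN1 (0.949 to 0.979). For GPX7, with 5 libraries at 0, PGAM5, AC007192.4 and VRK3 came first (0.977 to 0.978). The likest genes of GPX1, GPX4 and GPX8 shared with them the gap between the UF1hypo shUHRF1 replicates, as for PFN1 at 3402 and 2388 TPM and PPAT at 19.8 and 39.5. The GC content of the transcripts was 59.9% to 62.4% for the 3 genes of GPX1, 53.5% to 65.3% for those of GPX4 and 37.9% to 42.5% for those of GPX8. The part of GC content in these likenesses was not tested.

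The genes that make glutathione, recycle it or act beside the peroxidases were read from 7 lists that hold 129 genes, of which 115 were tested in the UF1hypo knockdown. Here 7 were called higher and 2 lower, or 7.83% against 8.53% of all genes, and the median log2 fold change was −0.11 against 0.04 over all genes. In HCT116 1 of 108 was called, or 0.926% against 0.0708%. Thus the surrounding pathway as a whole was called about as often as genes at large in UF1hypo, with a few genes far from 0. These counts, and those of all genes, moved when 1 library was left out, as set out with the processing below.

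In the list of glutathione supply and recycling, 4 of 19 tested genes were called higher in the UF1hypo knockdown and none lower. This was 21.1% of the list against 8.53% of all genes. GGT1, a surface enzyme that cleaves extracellular glutathione, rose in UF1hypo from 12.0 and 9.84 TPM to 58.8 and 47.1, a log2 fold change of 2.17 ± 0.36 (SE, limma adjusted p = 0.00563). GGT5, a related enzyme, rose from 3.37 and 3.42 TPM to 21.4 and 10.6 (1.88 ± 0.33, limma adjusted p = 0.00705), a call lost without UF1hypo shScr replicate 1 (limma adjusted p = 0.0512), with a pseudocount of 0.1 and in a fit on the UF1hypo libraries alone. Reads of GGT1 can be shared with near-identical copies of that family. CBS, which leads homocysteine towards cysteine and has a near-identical copy in the assembly, was at 0 in 6 libraries. It stood at 1.22 and 1.12 TPM in UF1hypo shUHRF1 (limma adjusted p = 0.00488). The call was lost with FPKM, under quantile normalization, under the GC correction and in the fit on the UF1hypo libraries alone. CBS passed the 1 TPM filter only through UF1hypo shUHRF1, the group where it was high.

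CHAC1, which degrades glutathione in the cytosol, moved in opposite directions. It fell with the hairpin in HCT116, from 77.6 and 76.0 TPM to 33.8 and 29.1 (−1.27 ± 0.16 SE, limma adjusted p = 0.0437), and rose in UF1hypo, from 16.8 and 18.1 to 75.2 and 68.2 (1.98 ± 0.16, limma adjusted p = 0.000136). The call in HCT116 was lost without any 1 of its 4 libraries, as was every other call there. The log2 fold change of CHAC1 was then −1.37 to −1.16. Its call was also lost without the TPM filter, with median-ratio scaling, without a variance trend and with a replicate block. The difference between the 2 knockdown effects was 3.24 ± 0.22 (limma adjusted p = 0.000208). CHAC1 was also lower in UF1hypo shScr than in HCT116 shScr (−2.08 ± 0.16, limma adjusted p = 0.000208). SLC7A11, the cystine importer, was lower in that comparison as well, at 38.7 and 31.3 TPM in HCT116 shScr and 7.09 and 5.63 in UF1hypo shScr (−2.29 ± 0.38, limma adjusted p = 0.0103). Leaving out any 1 of these 4 libraries gave SLC7A11 limma adjusted p of 0.0542 to 0.113. SLC3A2, its partner chain, measured 633 and 609 TPM with shScr and 401 and 387 with shUHRF1 in HCT116, and 308 and 353 with shScr and 660 and 488 with shUHRF1 in UF1hypo. Its knockdown effects differed by 1.43 ± 0.23 (limma adjusted p = 0.0118), at 0.0636 to 0.0838 without any 1 of the HCT116 libraries or UF1hypo shScr replicate 1.

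**Figure D4:**
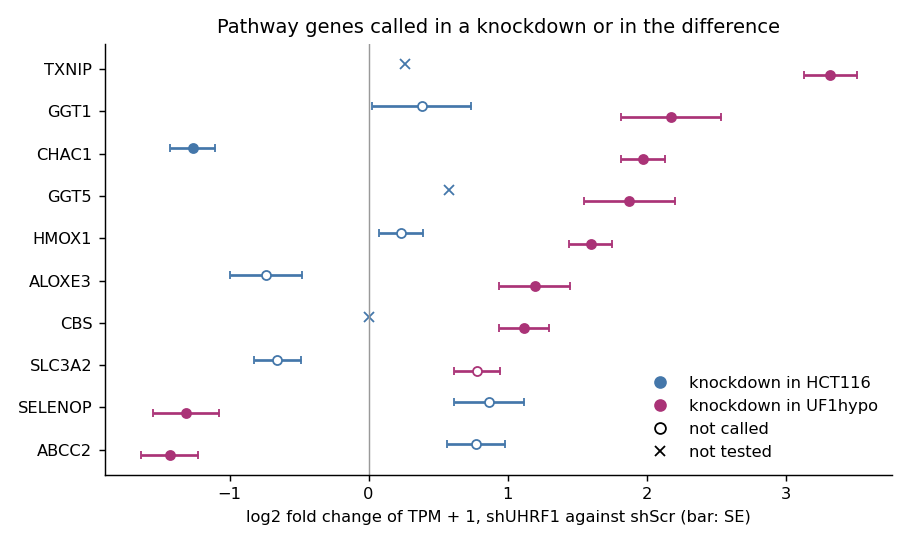
Log2 fold change of TPM + 1 with shUHRF1 against shScr in HCT116 (blue) and UF1hypo (purple) for the pathway genes called in either knockdown or in their difference, with bars for the SE, filled points for called, open points for tested and not called, and crosses for not tested. CHAC1, at −1.27 and 1.98, is the gene called in both lines, with opposite signs.

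Among the other peroxide and superoxide enzymes, 1 of 19 tested genes was called in the UF1hypo knockdown, or 5.26% against 8.53% of all genes. This was TXNIP, the inhibitor of thioredoxin, at 0 to 0.268 TPM in the 6 other libraries. It stood at 8.82 and 9.50 in UF1hypo shUHRF1 (3.32 ± 0.19 SE, limma adjusted p = 2.01e-05). TXNIP passed the 1 TPM filter only through that group, where it was high. The 6 peroxiredoxins, catalase and SOD1, the superoxide dismutase tested, were not called in the UF1hypo knockdown, at log2 fold changes of −0.55 to −0.05. An unadjusted limma p below 0.05 was found for 8 of the 19 genes, and for 3735 of 13620 genes at large. In the selenocysteine machinery and selenoproteins 1 of 21 was called, or 4.76%. SELENOP, the secreted selenium carrier, fell from 2.62 and 2.20 TPM to 0.153 and 0.631 (−1.31 ± 0.24, limma adjusted p = 0.0084), while in HCT116 it measured 2.63 and 2.26 TPM with shScr and 4.77 and 5.81 with shUHRF1 and was not called. Without UF1hypo shScr replicate 1 the limma adjusted p of SELENOP was 0.0826, and the call was also lost with FPKM, at −0.83, and in the fit on the UF1hypo libraries alone. Of the 2 secreted selenoproteins, GPX3 was thus highest and SELENOP lowest in UF1hypo shUHRF1.

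In the list of lipid peroxidation and ferroptosis, in which GPX4 acts, 1 of 17 tested genes was called in the UF1hypo knockdown. This was 5.88% of the list against 8.53% of all genes. ALOXE3, an epidermal lipoxygenase, rose from 5.21 and 6.42 TPM to 18.6 and 11.4 (1.196 ± 0.26 SE, limma adjusted p = 0.0184). This call was lost without UF1hypo shScr replicate 1 or 2, at limma adjusted p of 0.153 and 0.0697, without UF1hypo shUHRF1 replicate 1, at a log2 fold change of 0.87, under the GC correction and in the fit on the UF1hypo libraries alone. In the NRF2 pathway 2 of 14 were called, or 14.3%. HMOX1, heme oxygenase 1, rose from 34.3 and 30.3 TPM to 101 and 98.7 (1.60 ± 0.15, limma adjusted p = 0.000393). ABCC2, an exporter of glutathione conjugates, fell from 58.4 and 57.4 TPM to 16.9 and 25.7 (−1.43 ± 0.21, limma adjusted p = 0.003). The 12 tested glutathione S-transferases and the 13 genes of oxidative folding in the endoplasmic reticulum had no call by limma in either knockdown. In UF1hypo 3 and 5 of them had an unadjusted p below 0.05, as had 3735 of 13620 genes at large. In HCT116 these were 0 and 1, and 810 of 12704 genes at large.

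Between the lines with shUHRF1, 16 pathway genes were called higher and 3 lower of 114 tested, or 16.7% against 16.2% of all genes. Under the GC correction 12 pathway genes were called, with 1778 of all 13650 tested genes. GGT5 (3.28) and GGT1 (2.42) had the largest differences of the glutathione list. GGT5 already differed with shScr (1.98 ± 0.33 SE, limma adjusted p = 0.0113), a call lost without any 1 of those 4 libraries, at 0.0691 to 0.101. In the NRF2 list OSGIN1 (2.53) and HMOX1 (1.33), the latter not called under the GC correction, were higher. OSGIN1, an oxidative stress response gene, already differed with shScr, at 15.0 and 17.2 TPM in HCT116 and 37.7 and 39.9 in UF1hypo (1.22 ± 0.22 SE, limma adjusted p = 0.0162), a call lost without any 1 of these 4 libraries, at 0.0956 to 0.184, and under the GC correction. TXNIP (3.08) and ALOXE3 (2.13) were called higher, also with FPKM and under the GC correction. TXNIP again passed the filter only through UF1hypo shUHRF1. Of the glutathione S-transferases, GSTT2B (1.28) and GSTM2 (1.11) were called, and reads of both can be shared with close copies. With FPKM in place of TPM neither was called, at log2 fold changes of 0.995 and 0.91, and GSTM2 was not called under the GC correction either. MSRB1 (1.29), AIFM2 (1.13) and ABCC3 (1.19) were also higher, but none of these 3 was called under the GC correction, nor were AIFM2 and ABCC3 without HCT116 shUHRF1 replicate 2 or UF1hypo shUHRF1 replicate 1, at log2 fold changes of 0.88 to 0.99. Of the 3 genes called lower, ABCC2 (−2.34) and SELENOP (−2.19) were called under all 14 alternatives run for this comparison. GGCT, which degrades a product of glutathione breakdown, was the other (−1.18), a call lost under the GC correction, without the TPM filter and without either HCT116 shUHRF1 replicate or UF1hypo shUHRF1 replicate 1, at −1.28 to −0.61.

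Markers of other cell types were set beside GPX3, since kidney and adipose tissue are known sources of it. The 6 kidney proximal tubule markers summed to 2.26 to 3.94 TPM in the 6 other libraries and 4.24 to 6.29 in UF1hypo shUHRF1. SLC22A6 was at 0 throughout. Only 1 or 2 of the 6 passed the filter for a test in any comparison, and none of those was called. The 5 adipocyte markers summed to at most 1.11 TPM in any library, and ADIPOQ was at 0 throughout. The 10 leukocyte markers summed to 8.46 to 44.6 TPM outside UF1hypo shUHRF1 and 81.6 to 113 within it, mostly CD68, which is also a lysosomal gene, at 107 and 77.7 TPM. The 8 fibroblast markers summed to 21.3 to 29.0 TPM outside and 45.5 to 72.9 within, mostly COL1A1, at 65.5 and 37.7 TPM there. THY1 was at 0 to 0.127 TPM outside and 5.72 and 4.93 within, and FAP at 0 to 0.102 outside and 0.978 and 2.27 within, whereas COL1A2 and LUM were at 0 in UF1hypo shUHRF1. The 10 epithelial markers summed to 4355 to 9095 TPM outside and 9968 to 12781 within, and KRT20, a differentiation marker of colon epithelium, stood at 1.56 to 9.28 TPM outside and 75.01 and 111 within. In the UF1hypo knockdown 1 of 7 tested epithelial, 1 of 3 leukocyte and 2 of 3 fibroblast markers were called higher. The share of all genes was 7.39%. Between the lines with shUHRF1 these were 4 of 7, 2 of 3 and 3 of 3, against 12.2% of all genes. THY1, FAP and ITGAM passed the filter only through UF1hypo shUHRF1. The part of these marker levels in the GPX3 result was not tested.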

How the data were processed

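The authors sequenced poly(A) RNA as paired ends on an Illumina platform, used Fastp for trimming, HISAT2 2.0.4 for alignment to GRCh38 and StringTie 2.1.4 for the quantification of genes, as the paper's methods and the submitters' processing notes give it. The deposited tables hold coverage (mean depth per base, a signal), FPKM and TPM per gene and library, and no counts, so the count test that the study names could not be run. The annotation release and the use of strand are not given in the sources used here. Of 60649 identifiers 60463 were found in GENCODE version 44, and the 19942 protein-coding ones were analysed. SOD2 of the lists has a deposited identifier outside that set and was not analysed. Columns were read per library and summed over repeated records of an identifier.

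TPM was taken to log2(TPM + 1) and fitted with limma 3.58.1 in R 4.3.3 (means of the 4 groups, trended variances, 4 residual degrees of freedom), which pools the spread of all 8 libraries because each group has 2. Genes above 1 TPM in at least 1 library of a comparison were tested, p-values were adjusted by the Benjamini-Hochberg method over all of them, and genes with an adjusted p below 0.05 and an absolute log2 fold change above 1 were called. Depth, estimated from coverage and FPKM, was 5.42 to 7.83 Gb per library. Read counts behind a value are unknown, so no counting interval is given. The scripts were tested on simulated data. The members and lists were chosen with earlier results of these data known. Named were UHRF1, the family, genes that neighbour or overlap it, the 5 genes most like GPX3 and 3 most like each other member by Pearson's r, and per list, comparison and direction the up to 3 calls of largest size. A gene that this rule names is not reported here. As alternatives, the pseudocount was set to 0.1, the TPM filter dropped, and results recomputed with fits on the libraries of a comparison alone, FPKM, median-ratio and quantile scaling, the largest record of an identifier, untrended variances, a replicate block, a correction for GC content and length in 10 bins each, and leaving out each library.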

Additional observations from a re-analysis of the deposited data

Results flagged for a closer look

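In 8 pathway genes the effect of the knockdown differed between UF1hypo and HCT116 by the limma test of the difference itself. These were 8 of 115 tested, or 6.96% against 5.09% of all genes. The effect was higher in UF1hypo by 3.24 on the log2 scale for CHAC1, 3.06 for TXNIP, 1.94 for ALOXE3, 1.43 for SLC3A2, 1.36 for HMOX1 and 1.12 for CBS. TXNIP and CBS passed the 1 TPM filter only through UF1hypo shUHRF1, where they were high. For SELENOP and ABCC2 the difference was −2.18 and −2.20. In both of these genes the HCT116 libraries with shUHRF1 lay above those with shScr and the UF1hypo libraries with shUHRF1 below theirs, as for ABCC2 in HCT116 at 63.3 and 63.8 TPM with shScr against 119 and 99.9 with shUHRF1. CHAC1, TXNIP and ABCC2 were called under all 17 alternatives. Leaving out any 1 of the HCT116 or UF1hypo shScr libraries ended the call for HMOX1 (limma adjusted p of 0.0552 to 0.0794), ALOXE3 (0.0679 to 0.111) and CBS (0.159 to 0.180), and leaving out any 1 of the HCT116 libraries or UF1hypo shScr replicate 1 ended that for SLC3A2 (0.0636 to 0.0838) and SELENOP (0.0510 to 0.0726). The call of ALOXE3 was also lost under quantile normalization. That of CBS held under 6 of 17 alternatives, and was lost as well with FPKM (0.59), median-ratio scaling, quantile normalization, a replicate block and the GC and length correction.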

How the results depend on the processing

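The GPX3 difference kept its sign in the 3 comparisons that hold UF1hypo shUHRF1 under every alternative run. With a pseudocount of 0.1 it was 8.18 for the UF1hypo knockdown, 8.34 for the difference of knockdowns, 6.68 between the lines with shUHRF1 and −1.65 between the lines with shScr, and with FPKM in place of TPM it was 4.65, 4.69, 4.44 and −0.25. Leaving out 1 library gave 5.54 to 5.99, 5.61 to 6.05, 5.13 to 5.57 and −0.65 to −0.33. Its share of the summed TPM in UF1hypo shUHRF1 was 4.56% to 4.80% with 1 library left out. The number of genes called in HCT116, 9, was 30 with a pseudocount of 0.1, 2 without a TPM filter, 89 on its own libraries alone, 3 with median-ratio scaling, 5 without a variance trend and 71 with the GC and length correction, and for pathway genes, 1, it was 0 without the filter, 2 on its own libraries, 0 with median-ratio scaling, 0 without a trend and 2 with the correction. Leaving out a library gave 0 to 0 for both, with fewer residual degrees of freedom. In UF1hypo 1162 genes were called, 563 on its own libraries (5 pathway genes in place of 9) and 749 with FPKM, and 655 (without UF1hypo shScr replicate 1) to 2255 (without UF1hypo shUHRF1 replicate 2) with a library left out, with 6 to 24 pathway genes. The difference of knockdowns had 702 calls, 448 with a pseudocount of 0.1, and 171 to 2142 with 3 to 20 pathway genes when a library was left out. Between the lines with shScr the 455 calls and 4 pathway genes became 149 to 190 and 1 to 1, and between those with shUHRF1 the 2205 and 19 became 1585 to 3859 and 15 to 40, with 12 pathway genes under the GC and length correction. The cause of these shifts was not tested.

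The labels number the replicates, but deviations of libraries with the same number correlated at −0.03 to 0.05 and at −0.40 for the 2 UF1hypo groups. No pair of groups thus showed a clear positive correlation by number, and the 2 UF1hypo groups deviated in opposite directions. The main fit held no replicate block. These correlations cannot exclude that libraries with the same number were prepared together. With a replicate block the UF1hypo knockdown had 1110 calls, the difference 471, the lines with shScr 369 and those with shUHRF1 2171. The knockdown in HCT116 had 1 call and 0 pathway genes with that block. With the UF1hypo numbers crossed, an alternative chosen after seeing the data, 1207 genes were called, 9 of them pathway genes. Of 41 calls of single pathway genes over the 5 comparisons, 17 held under every alternative run for them and none changed sign. With 2 libraries a group, only large differences could pass the test.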

Other observations

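Of 6966 protein-coding genes under 1 TPM in the 6 libraries outside UF1hypo shUHRF1, 447 passed 1 TPM in both libraries of that group and 35 passed 10 TPM. By the lower of its 2 values GPX3 stood below only 3 of them. These 3 genes, named after their values were seen, were SLC15A3, a peptide transporter of endolysosomes, at 137 and 98.6 TPM, KRT17, a keratin of basal epithelia, at 150 and 83.4, and PNMA5, of the paraneoplastic antigen family, at 105 and 83.3. Of the followed members, only GPX3 and GPX7 were under 1 TPM in all 6 libraries outside UF1hypo shUHRF1. The set follows the pattern of GPX3 that was known when the family was chosen, so nothing is read from the place of GPX3 in it.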
